A study of Arabidopsis thaliana with 3 samples.

Results

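The genes described here are the 100 nuclear genes of Arabidopsis thaliana whose reads were found in the largest share of single lateral root primordium cells. They were taken from a table of raw read counts with 32833 genes. Plate wells with reads of 500 or more genes, 322 in number, were counted as cells. Genes were chosen by the share of cells with at least 1 read, with ties ordered by summed reads. Genes of the chloroplast and mitochondrial genomes and 16 named nuclear genes were left out, and 8 of those 16 would otherwise have ranked among the 100. Those 8 were the annotated 18S ribosomal RNA gene AT3G41768, JAZ1, RHL41, IAA2, GSTF8, ERD10, COR47 and ERD14. The shares that chose the genes are given as a description and carry no test.

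All cells came from 1 group of plants, accession Col-0, at 5 days after germination. These plants carried the construct pHB53:NLS-3xmCherry, a nuclear red fluorescent protein under the promoter of the homeobox gene HB53. Root cells were freed of their walls, and protoplasts with mCherry signal were sorted, so every cell shares the enzyme treatment and the sort, and there is no untreated or unsorted group. The labels give 3 replicates and stages I-IV of the primordium, but the sources used here tie no well to a replicate, and all wells were treated as 1 sample without a replicate check. Values are given for each of 3 sequencing flow cells. Whether flow cells correspond to replicates is not stated, so differences between flow cells cannot be told from differences between replicates.

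Cells held a median of 245742 reads (8315 to 1459543) and 4009 genes (506 to 9516). Flow cells 1, 2 and 3 held 102, 96 and 124 cells with median totals of 408532, 440181 and 132330 reads. The other 251 wells had a median of 3922 reads and 52 genes and were not used by the ranking. Of 5 primordium genes, AIL6 had reads in 46.6% of cells, LBD16 in 36.0%, AIL5 in 35.7%, HB53 in 11.5% and PUCHI in 9.01%. The photosynthesis genes RBCS1A, CAB1 and CA1 had reads in 7.76%, 4.66% and 3.11% of cells.

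Broadly detected transcripts of plant cells usually come from the machinery that every cell runs. This covers protein synthesis, in which ribosomes built on 18S, 5.8S and 25S ribosomal RNA are served by initiation and elongation factors. It also covers the ubiquitin system, which marks proteins for turnover, and central metabolism. A second source is the general stress programme of plants, in which NAC, DREB and WRKY transcription factors, late embryogenesis abundant (LEA) proteins, dehydrins and glutathione transferases respond to wounding, cold and water loss. Ribosomal RNA genes lie in long tandem arrays at the ends of chromosomes 2 and 4 in this species, and copies and fragments of them elsewhere can take up reads of the abundant ribosomal RNA.

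Of the 100 genes, 96 were annotated as protein-coding, 2 as ribosomal RNA, 1 as a microRNA precursor and 1 as a long non-coding RNA. They were sorted by function and position into groups after their values had been seen. A group of 8 was ribosomal DNA (rDNA) or contained rDNA sequence, and 1 gene was a nuclear copy of a mitochondrial gene. Another 5, called neighbours of 18S genes here, lay 94.97 to 268 kb from an annotated 18S gene. The other 86 were grouped as carbon, energy and amine metabolism (11), transcription regulators (11), redox and detoxification (10), translation (9), dehydration and cold response (9), ubiquitin and SUMO (8), cell wall and arabinogalactan (6), small GTPases (3), chaperones (2) and other genes (17).

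The sequences of 2 of the rDNA group are shown because they make visible how loci of different annotation hold the same letters. AT2G01020 at chr2:5782-5945 (TAIR10.1 reference, plus strand) carries the note 5.8S rRNA, and its 164 bases occur without a difference as bases 179 to 342 of the long non-coding RNA AT3G06355 at chr3:14199575-14200076. AT5G10340, annotated as an F-box protein gene, lies on chromosome 5, and its first coding exon at chr5:3253122-3253260 (plus strand) is given with the 109 of 139 bases that match AT2G01008, a locus beside the 18S gene, in capitals. The matching stretches, the last of which runs on into the intron, have at least 31 bases and lie on the opposite strand of AT2G01008.
AT2G01020: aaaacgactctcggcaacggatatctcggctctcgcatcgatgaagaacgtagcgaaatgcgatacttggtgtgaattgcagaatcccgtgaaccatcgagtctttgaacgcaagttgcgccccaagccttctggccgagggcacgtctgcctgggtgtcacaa
AT5G10340 exon: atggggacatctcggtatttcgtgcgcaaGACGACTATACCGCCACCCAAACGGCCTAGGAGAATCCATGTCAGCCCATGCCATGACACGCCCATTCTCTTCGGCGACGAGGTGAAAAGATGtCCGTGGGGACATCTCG

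The 100 genes had reads in 88.8% to 100% of cells, with a median of 92.2%. The median nuclear gene with any read (of 27814) had reads in 5.90% of cells. Only AT2G01010, an annotated 18S gene at chr2:3706-5513, had reads in all 322 cells, 18 of the genes reached 95% of cells and 80 reached 90%. RHA2B, a RING-type ubiquitin ligase gene, followed with 99.4%, then AT3G06355 with 98.8%, AT2G01008 with 97.8%, AT2G01020 with 97.5% and the MIR5642a precursor locus with 97.2%. The first gene outside the rDNA group and its neighbours was SAG24, a gene of the ribosomal protein L10 family, in 96.9% of cells. Rank 8 was the polyubiquitin gene UBQ10 and rank 9 the arabinogalactan protein gene AGP15, both with 96.3%. At the lower end, CYT1, WRKY48 and PIA1 took ranks 98 to 100, and FBA8, SAP5 and AT5G64400 were the first left outside. All 6 were found in 88.8% of cells, so the limit fell within a tie that was broken by read number.

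A single cell held reads of a median of 98.5 of the 100 genes. The count ranged from 11 to 100, 91 cells held all of them, and 272 held at least 90. Flow cells 1, 2 and 3 gave medians of 99, 99 and 98. The 50 cells with fewer than 90 had a median of 1601.5 genes of any kind, against 4369 in the other 272. In 9 cells with under 1000 genes the median was 17 of the 100, and in 163 cells with 4000 or more it was 99. In the 161 cells of the upper part by gene number, 30 of the genes were found in every cell and the lowest share was 93.2%. The count of these genes per cell moved with the gene number of the cell (Spearman's rho 0.64 over 322 cells, which share plates and library handling).

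**Figure D1:**
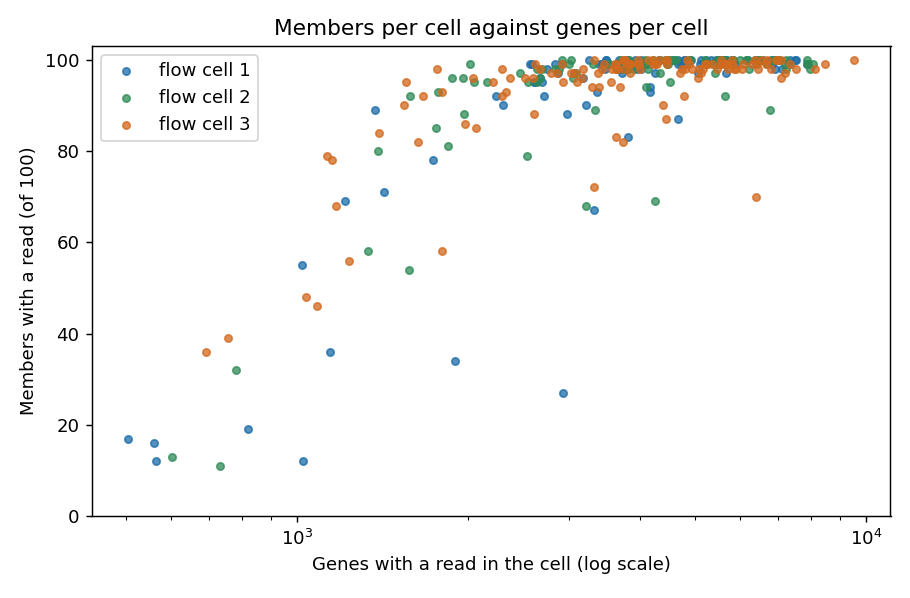
Members with a read (y axis, of 100) against genes with a read (x axis, log scale) for each of 322 cells, coloured by flow cell. Cells with few genes hold 11 to 98 of the 100, while the 163 cells with 4000 or more genes hold 69 to 100.

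Levels of the 100 genes were far apart, since the ranking used presence and not amount. Reads summed over cells gave scaled counts (CPM) of 27.6 to 6084, a ratio of 220.2 between the highest and the lowest. UBQ10 was highest with 6123, 6346 and 5335 CPM on flow cells 1, 2 and 3. NADP-ME2, a cytosolic malic enzyme gene, had 5103, 6754 and 4969 CPM, and OPR1, an oxophytodienoate reductase gene, 5962, 5339 and 5887 CPM. AT5G35735, an auxin-responsive family gene, had 5776, 5763 and 5019.6 CPM, and the elongation factor 1-alpha gene AT5G60390 had 3774, 3926 and 4005 CPM. The ranges of these 5 genes overlapped between the first 4, and AT5G60390 lay below the other 4 on each flow cell.

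The lowest were AT2G01440 with 23.9, 29.6 and 33.0 CPM, AT3G33530 with 32.1, 25.7 and 38.8 CPM, AT2G01610 with 47.2, 34.6 and 29.2 CPM, AT3G41762 with 67.1, 54.6 and 46.6 CPM and AT2G07698 with 139, 87.2 and 82.5 CPM. All 5 belong to the rDNA group, the neighbours of 18S genes or the mitochondrial copy. Outside these 3 groups the lowest level was 178 CPM, that of the ubiquitin-like gene UBL5. By level, 55 of the 100 were among the 100 highest nuclear genes and 94 among the 1000 highest, and the lowest stood at rank 6501. Share and level were weakly related over the 100 genes (Spearman's rho 0.12, no test, since level broke ties in the ranking). Per length of transcript the levels ran from 11.8 to 6700 TPM, the same scaling after division by transcript length, with 6700.3 TPM for AT2G01020, 6073 for AT3G06355, 5551 for AT5G35735 and 5062 for UBQ10. Whether reads cover whole transcripts is not stated, so TPM values of long and short transcripts are compared with that limit.

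**Figure D2:**
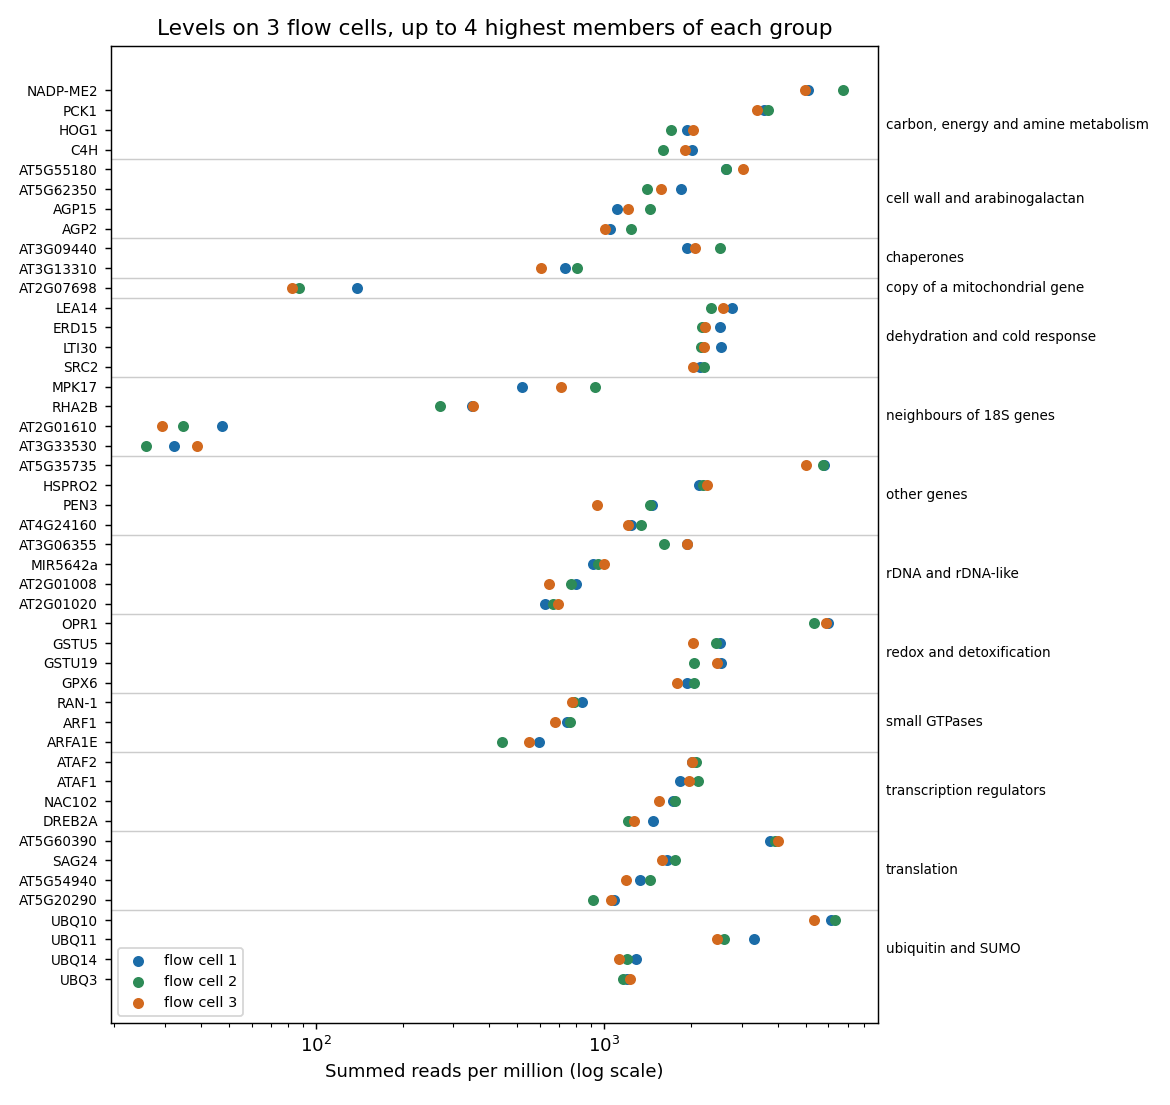
Summed reads as CPM (x axis, log scale) on 3 flow cells (colours) for up to 4 of the highest members of each group (y axis). Most triplets of points lie close together, while neighbours of 18S genes such as AT2G01610 and AT3G33530 lie at 25.7 to 47.2 CPM.

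Together the 100 genes took 13.2% of all nuclear reads in cells, and 13.5%, 13.1% and 12.6% on the 3 flow cells. Over 6 plates the share ran from 11.6% to 14.02%. Single cells ranged from 0.207% to 23.8% with a median of 12.9%. The 86 genes outside the rDNA, 18S neighbour and mitochondrial copy groups accounted for 12.5% of nuclear reads.

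The levels differed little between flow cells. The ratio of the highest to the lowest flow cell had a median of 1.21, and it passed 2-fold for 2 of the 100 genes. Over 18373 nuclear genes with at least 100 reads, 51.7% passed 2-fold, and over the 2039 genes with at least 10000 reads 7.85% did. The 2 genes were HSF4, a class B heat shock factor gene, with 480.1, 1038 and 839 CPM (2.16-fold), and AT2G01010 with 184, 85.8 and 101 CPM (2.14-fold). The next ratios were those of the glutathione transferase gene GSTF10 with 1447, 741 and 1124 CPM (1.95-fold), MPK17 (1.78-fold) and AT2G07698 (1.69-fold). HSF4 was lowest on flow cell 1, where AT2G01010 and GSTF10 were highest. The smallest ratio was that of AT5G21940 with 528, 525 and 531 CPM.

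Spread between cells was taken from 257 cells thinned to 115851 reads. The coefficient of variation of CPM over these cells had a median of 0.835 over the 100 genes and of 1.53 over the 2039 nuclear genes with at least 10000 reads. Genes chosen for a read in most cells have few zeros, which lowers this measure, so nothing is read from that difference. The coefficient was lowest for ERD15, an early dehydration-induced gene, with 0.549, followed by AGP15 with 0.568, UBQ10 with 0.594, NAC102 with 0.606 and AGP1 with 0.620. It was highest for AT2G07698 with 2.03, AT2G01440 with 1.88, AT3G33530 with 1.68, AT2G01610 with 1.61 and AT5G10340 with 1.51. The 5 highest all belong to the rDNA, neighbour and mitochondrial copy groups, outside of which the values lay between 0.549 and 1.10.

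The wells below the limit of 500 genes allowed the same share to be measured where the ranking had not used it. The median of the 100 genes there was 3.98% of 251 wells. UBQ10, found in 96.3% of cells, had reads in 11.95% of these wells. GAPC1, a cytosolic glyceraldehyde-3-phosphate dehydrogenase gene, was in 94.7% of cells and 4.78% of these wells, and the transcription factor gene ERF4 in 92.2% and 0.797%. A total of 5 genes stood apart, each found in more than 50% of these wells. AT2G01010 had reads in 92.0% of them (exact 95% interval 88.0% to 95.1%), RHA2B in 79.7%, AT2G01610, a pectin methylesterase inhibitor gene, in 75.7%, AT3G33530, a WD-40 repeat gene, in 72.5%, and AT2G01440, an RNA helicase gene, in 61.8%.

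On flow cells 1, 2 and 3 AT2G01010 was in 87.6%, 91.7% and 98.5% of these wells, and RHA2B in 77.5%, 67.7% and 100%. AT2G01610 was in 65.2%, 68.8% and 100%, AT3G33530 in 67.4%, 64.6% and 90.9%, and AT2G01440 in 47.2%, 54.2% and 92.4%. These shares were highest on flow cell 3, whose wells below the limit had a median of 12042.5 reads, against 2053 and 3930.5 on the other flow cells. UBQ10 was in 12.4%, 15.6% and 6.06% of these wells and did not follow that order.

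With every well thinned to 3922 reads, the order of these 5 genes turned around. The median of the 100 genes was then 77.8% in 322 cells and 3.17% in 126 wells below the limit, with 125 shallower wells left out. AT2G01010 was in 36.6% of cells and 93.7% of wells below the limit, and RHA2B in 55.0% and 80.2%. AT3G33530 was in 16.1% and 80.2%, AT2G01610 in 14.6% and 72.2%, and AT2G01440 in 12.7% and 63.5%. These were the 5 of the 100 genes with a higher share in wells below the limit than in cells at this depth. UBQ10 was in 94.1% of cells and 8.73% of those wells, and AT3G06355 in 92.9% and 4.76%.

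**Figure D3:**
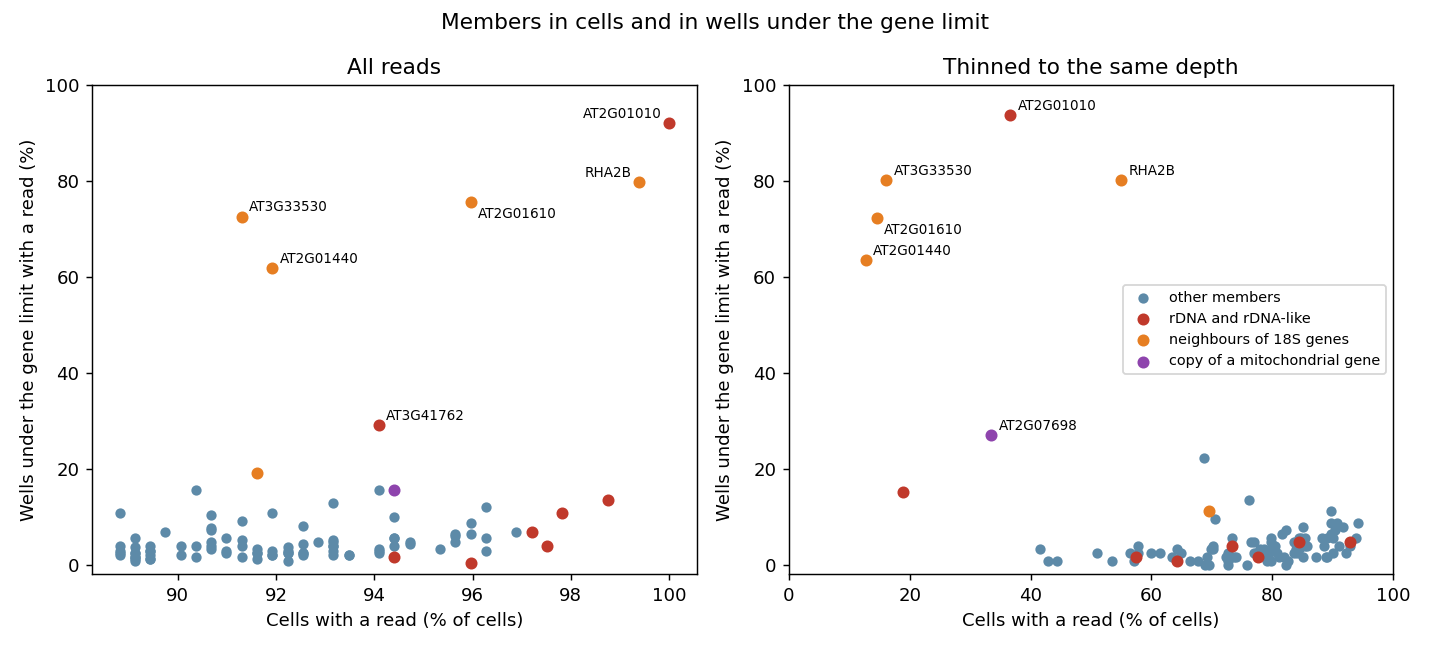
Share of wells under the gene limit with a read (y axis, percent) against the share of cells with a read (x axis, percent) for the 100 members, with all reads on the left (251 wells under the limit) and with 3922 reads per well on the right (126 wells). The members AT2G01010, RHA2B, AT2G01610, AT3G33530 and AT2G01440 lie above 50% on the y axis in both panels, and in the right panel their share of cells is 12.7% to 55.0%.

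Of these 5 genes AT2G01010 is itself an annotated 18S gene, and the others lie near one, though not they alone. The 18S gene AT2G01010 lies near the end of chromosome 2, and a second annotated 18S gene, AT3G41768, lies on chromosome 3. RHA2B lies 94.97 kb from AT2G01010, AT2G01440 188 kb and AT2G01610 268 kb, while AT3G33530 lies 104 kb from AT3G41768. All 9 nuclear genes found in at least 50% of wells below the limit, members or not, lie within 500 kb of one of these 18S genes. So do all 21 found in at least 25%, and both 18S genes are themselves counted among these 9 and 21. Of 58 nuclear genes found in at least 10% of these wells 42 lie that close, and of 17 members 9 do. Among all nuclear genes with a position, 179 of 32548, or 0.550%, lie that close. Of the 100 genes, 11 do, AT2G01010 itself among them. The other 6 of these 11 are MPK17 and 5 genes of the rDNA group, and they were found in 3.98% to 29.1% of wells below the limit. AT3G41768 itself took 4.44% of the reads of cells and 19.5% of the reads of wells below the limit.

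Reads were also set against those of AT3G41768. AT2G01010 had 2.97 reads per 1000 reads of AT3G41768 in cells and 6.09 in wells below the limit, and AT2G01610 had 0.887 and 2.42. AT3G33530 had 0.691 and 2.34, and AT2G01440 had 0.623 and 1.46. AT2G07698 had 2.47 and 3.49. These 5 of the 100 genes had fewer reads per 18S read in cells than in these wells. RHA2B had 7.18 and 4.91, higher in cells. MPK17, a MAP kinase gene 194 kb from the same 18S gene and next to AT2G01440, had 16.0 and 0.130, and UBQ10 had 137 and 3.66. Over the 86 genes outside the 3 groups the ratio of cells to wells below the limit had a median of 33.0 and was at least 2.51. Whether the reads of RHA2B, AT2G01610, AT2G01440 and AT3G33530 come from their own transcripts was not tested.

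The rDNA group was also marked by sequence shared with other places in the genome. Exons were cut into words of 31 bases, and each word was looked up on both strands of the TAIR10.1 nuclear chromosomes. A word found there repeatedly was counted as elsewhere, also where the repeat lay in the same gene. AT2G01020 had 100% of its words elsewhere, AT2G01010 96.5%, the MIR5642a precursor locus 94.5%, AT3G06355 81.6%, AT3G41762 81.3% and AT2G01008 80.5%. AT2G16586, an uncharacterized gene 7185 kb from the nearest annotated 18S gene, had 44.0%, all within the surroundings of the 18S genes. In AT5G10340 2.58% of words were of rDNA, which is the exon printed above. Among 25243 protein-coding genes 1.32% had more than 50% of their words elsewhere, and of the 96 protein-coding members 3 did, namely AT2G01008, AT3G41762 and AT1G07940. AT1G07940 is an elongation factor 1-alpha gene with 53.3%, whose reads cannot be told from those of its paralogs where the sequence is the same. For UBQ10, UBQ14 and UBQ11, 25.3%, 19.1% and 18.7% of words were counted so, which can include repeats within the same gene. AT2G07698, an ATP synthase alpha subunit gene on chromosome 2, had 98.7% of its words in the mitochondrial genome.

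Levels of the rDNA group, AT2G01010 aside, were strongly correlated from cell to cell. Correlations were computed as Spearman's rho within each flow cell over 92, 91 and 74 thinned cells, which share library handling and are parts of 1 total per cell, and then averaged. AT2G01008 with AT2G16586 gave 0.95, AT2G01008 with AT5G10340 0.93, the MIR5642a locus with AT2G16586 0.92, AT2G01008 with the MIR5642a locus 0.90, and AT3G06355 with AT2G01020 0.90. These were the 5 highest of 4950 pairs. All words of AT2G01020 occur in AT3G06355, and 88.1% of those of the MIR5642a locus occur in AT2G01008, so that reads could be split between them. The 28 pairs within the group had a median of 0.71, against a median of 0.08 over all pairs and of -0.04 for the pairs of this group with other members. The highest rho of AT2G01010 with any member was 0.42, with AT3G06355. AT5G10340 belonged to the block although 33 of its 1278 exon words occur in AT2G01008. The microRNA precursor locus overlaps AT3G41762 on the other strand, and the strand setting of the counting is not given, so its reads are not read as those of a microRNA.

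Neighbours of 18S genes did not join this block. Correlations with AT3G41768 were computed apart, over all 102, 96 and 124 cells of the flow cells, without thinning, on reads divided by the cell total. They are not averaged and are not the same measure as those within the block. AT2G01610, AT3G33530 and AT2G01440 correlated with AT3G41768 within flow cells at 0.31 to 0.54, RHA2B at -0.16 to 0.05, MPK17 at -0.26 to -0.17, and AT2G01010 at 0.70 to 0.87. In cells with a read, AT2G01610, AT3G33530 and AT2G01440 had medians of only 6, 5 and 4 reads. The rDNA block itself followed AT3G41768 less closely than AT2G01010 did, at 0.18 to 0.53 for AT3G06355, AT2G01008, AT2G01020 and the MIR5642a locus.

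Among genes of the translation machinery, 9 belonged to the 100. The elongation factor 1-alpha gene AT5G60390 was the most abundant of them (3871 CPM). SAG24 had 1656, 1761 and 1595 CPM on the 3 flow cells, and its paralog SAC52, also of the ribosomal protein L10 family, 612, 739 and 686 CPM. AT5G54940, a gene of the initiation factor family SUI1, had 1353 CPM, EIF4A1, the RNA helicase that opens messenger RNA for ribosomes, 647 CPM, and FBR12, the initiation factor 5A gene, 576 CPM. AT5G20290, of ribosomal protein S8, had 1013 CPM and AT4G27090, of ribosomal protein L14, 521 CPM. Of 344 genes annotated as ribosomal proteins only AT4G27090, AT5G20290 and SAC52 were members by that pattern, and 141 were found in at least 50% of cells. Of 11 elongation factor genes 2 were members, and the median of that list was 78.9% of cells.

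The pairs within translation had a median rho of 0.41, and those of translation with other members -0.07. AT4G27090 with AT5G20290 gave 0.69 (0.68, 0.65 and 0.74 on the 3 flow cells), and AT5G60390 with AT5G20290 0.65. The lowest pairs of all 4950 joined AT4G27090 to OPR1 (-0.45), to LEA14 (-0.44) and to UBQ10 (-0.43). Of 81 pairs of translation with dehydration and cold response, 61 were below 0, with a median of -0.12. AT5G54940 went with the other side: its rho was 0.51 with LEA14 and -0.42 with AT5G20290. SAG24 was nearest to AT5G35735 (0.38). AAC1, the carrier that exchanges ADP and ATP across the inner mitochondrial membrane, was nearest to AT5G60390 (0.49) and farthest from AT5G54940 (-0.42).

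**Figure D4:**
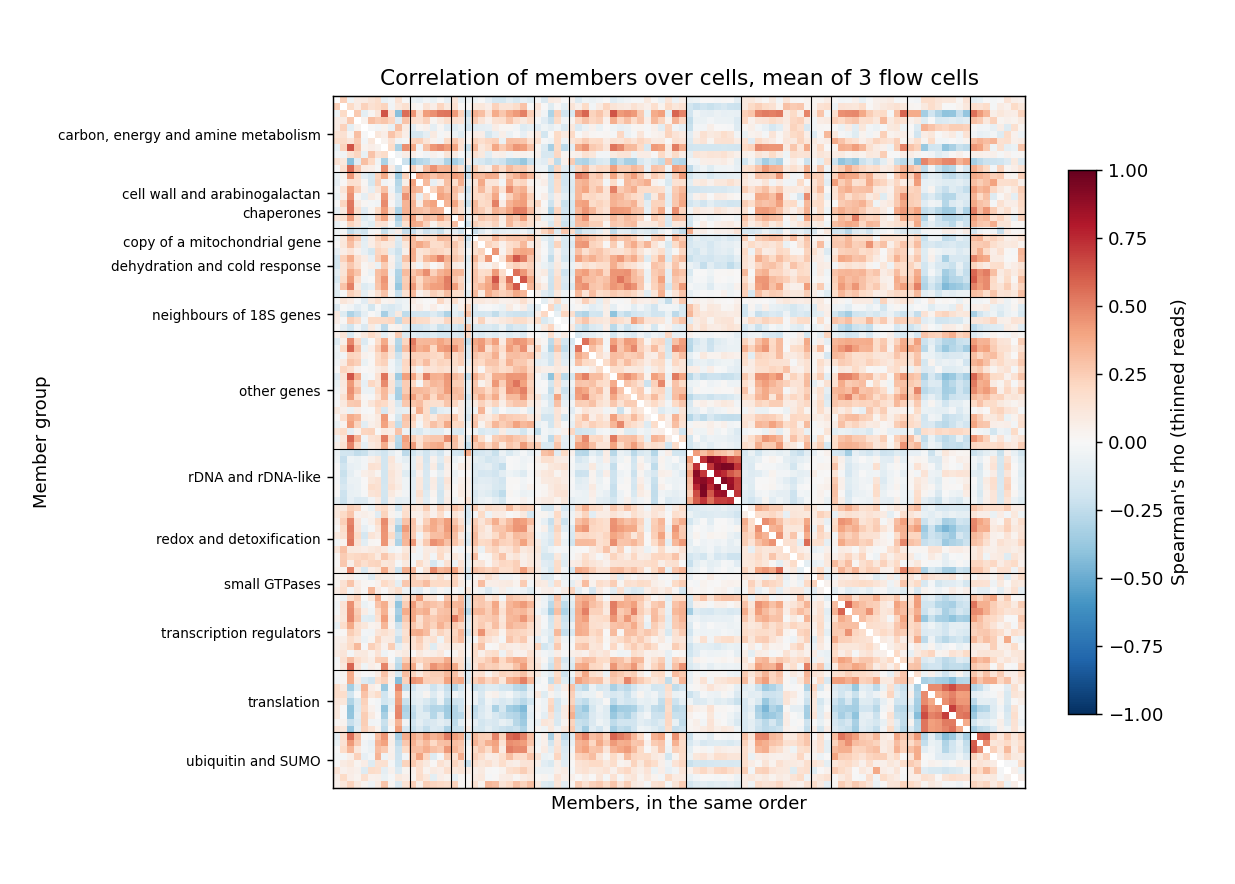
Mean Spearman correlation over thinned cells within 3 flow cells for all pairs of the 100 members, ordered by group (y axis; the x axis has the same order). The rDNA block has a median of 0.71, and the translation block (median 0.41) is mostly negative with the dehydration and cold group (median -0.12).

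The ubiquitin and SUMO group held 8 genes, 4 of them among the 10 polyubiquitin and ubiquitin fusion genes. UBQ10, UBQ11, UBQ14 and UBQ3 were found in 96.3%, 95.7%, 92.5% and 91.9% of cells at 6084, 2901, 1230.1 and 1192 CPM. UBQ4, another polyubiquitin gene, was found in 45.0% of cells. UBQ10 correlated with UBQ14 at 0.62 and with UBQ11 at 0.60, pairs that share 208 and 162 words of 31 bases, so that reads could be split between them. The other 4 were the SUMO-conjugating enzyme gene SCE1 (698 CPM), the ubiquitin-conjugating enzyme gene UBC10 (347 CPM), the F-box gene FBS1 (1021 CPM) and UBL5.

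Metabolism was represented by glycolysis, malate and methyl group turnover. GAPC1 had 1298, 1422 and 1570.4 CPM on the 3 flow cells and TPI, triosephosphate isomerase, 1395, 1171 and 1255 CPM. They were the 2 members among 10 glycolysis and fermentation genes, and the aldolase gene FBA8 was the first gene outside the 100. PCK1, of gluconeogenesis, had 3597 CPM, HOG1, which clears S-adenosylhomocysteine, 1861 CPM, and C4H, of the phenylpropanoid pathway, 1841 CPM. ADC2 and SAMDC, both of polyamine synthesis, had 1366 and 787 CPM. NADP-ME2 stood close to several members of other groups, with a rho of 0.63 to AT4G20830, a berberine bridge enzyme family gene, 0.63 to C4H and 0.59 to the ABC transporter gene PEN3.

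Regulators of the stress response made up much of the transcription group. All of ATAF1, ATAF2, NAC102 and NAC032, which form the ATAF subfamily of NAC factors, were among the 100. ATAF1 had 1830.3, 2125 and 1975 CPM on the 3 flow cells, ATAF2 2022, 2092 and 2012 CPM, NAC102 1738, 1761 and 1547 CPM and NAC032 883, 674 and 851 CPM. NAC032 was lowest on each flow cell. ATAF2 with NAC102 had a rho of 0.58. DREB2A, an activator of genes of drought and heat, had 1342 CPM, WRKY48 947 CPM, CZF1, a zinc finger gene, 781 CPM, and ERF4, a repressor of the ethylene response, 411 CPM. Of 1252 genes in a list of transcription factor families, 10 were members, 6 were among those left out by name, and the median gene was found in 6.21% of cells.

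The dehydration and cold response group held 9 genes, whose coefficients of variation between cells ran from 0.549 (ERD15) to 0.972 (RD19). LEA14 had 2785, 2355 and 2594 CPM on the 3 flow cells, ERD15 2526, 2193 and 2246 CPM, the dehydrin gene LTI30 2548, 2174 and 2228 CPM, SRC2 2156, 2219.9 and 2039.9 CPM, and HVA22D 1990.0, 1711 and 1459.5 CPM. KIN2, RD19, SAG21 and the LEA gene AT2G23120 were the other 4, with 519, 1109, 266 and 331 CPM. All 36 pairs in this group had a positive mean rho, with a median of 0.28, and the highest were HVA22D with LTI30 and LTI30 with LEA14 (0.62 each).

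In the redox group OPR1 led, followed by the glutathione transferase genes GSTU5 (2419.7 CPM) and GSTU19 (2337 CPM), the peroxidase gene GPX6 (1960.2 CPM) and APX1, cytosolic ascorbate peroxidase (1265 CPM). GSTU19 was found in 96.0% of cells and in 91.2%, 95.8% and 100% of those on flow cells 1, 2 and 3. The neighbouring genes GSTU5 and GSTU6 had a rho of 0.56. OPR1 overlaps OPR2 on the same strand, which took 25633 reads, so reads could be split between them. Arabinogalactan protein genes AGP15, AGP1 and AGP2, 3 of 57 annotated, were found in 96.3%, 96.0% and 90.7% of cells at 1257, 756 and 1118 CPM. Of chaperone genes, 2 of 242 were members, the HSP70 gene AT3G09440 (2195 CPM) and the DnaJ-domain gene AT3G13310 (741 CPM). AT1G07590 (792 CPM) overlaps the metallothionein gene MT1A on the same strand. MT1A is listed at 0 reads in cells, so reads counted for AT1G07590 cannot be told from MT1A reads.

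Many gene lists held few or no members, and the 100 genes themselves are a small part of the 32548 nuclear genes. Of 14 genes used as references in quantitative PCR, UBQ10, AT5G60390 and UBC10 were members. ACT7 was found in 81.1% of cells, ACT8 in 73.6%, ACT2 in 64.9%, AT4G34270 in 38.5%, PP2AA3 in 35.7% and PEX4 in 35.1%. None of 22 actin and tubulin genes, 52 histone genes, 76 calmodulin and calmodulin-like genes, 37 aquaporin genes, 51 cyclophilin genes, 13 genes of 14-3-3 proteins, 5 metallothionein genes, 2 glycine-rich RNA-binding protein genes or 38 jasmonate and wound genes was a member. With lists this small next to all nuclear genes, nothing is read from these counts, and for MT1A the overlap with AT1G07590 given above applies. Among these lists, JAZ1 of the jasmonate list had been left out by name.

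Promoters were read as the 250 bases before the annotated start of 96 protein-coding members and of 27443 protein-coding genes, and motifs were sought on both strands. The dehydration-responsive core CCGAC was found in 21.9% of members and 11.97% of all, and the site CGCG of calmodulin-binding transcription activators in 19.8% and 10.14%. CACGTG, the G-box, was found in 12.5% and 6.49%, and ACGTG, which lies within the G-box, in 28.1% and 22.9%. The W-box core TTGAC was found in 51.0% and 44.9%, TATAAA in 42.7% and 47.3%, and the heat shock element GAANNTTC in 8.33% and 9.55%. By group, CCGAC was in 3 of 9 dehydration and cold promoters, 2 of 6 cell wall and arabinogalactan promoters and 5 of 17 promoters of other genes. CGCG was in 4 of 8 ubiquitin and SUMO promoters. GGGCC was in 7 of 9 translation promoters (16.2% of all genes), and TGACG in 6 of 10 redox promoters (18.6% of all genes). The groups are small and were made after values had been seen. A match describes letters and not a bound site.

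Promoters of LTI30 and ERD15 are shown, the first because LTI30 was in both of the closest pairs of its group and the second because ERD15 had the lowest spread between cells. Capitals mark the dehydration-responsive core, the G-box and its core named above, on either strand, and in ERD15 the site of calmodulin-binding activators too. They lie at chr3:18940393-18940642 and chr2:17268908-17269157 of TAIR10.1, both on the plus strand.
LTI30: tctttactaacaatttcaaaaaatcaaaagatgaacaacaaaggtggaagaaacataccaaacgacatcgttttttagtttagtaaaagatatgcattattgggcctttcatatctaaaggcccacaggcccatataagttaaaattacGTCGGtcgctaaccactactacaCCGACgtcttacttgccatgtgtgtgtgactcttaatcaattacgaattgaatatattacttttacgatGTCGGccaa
ERD15: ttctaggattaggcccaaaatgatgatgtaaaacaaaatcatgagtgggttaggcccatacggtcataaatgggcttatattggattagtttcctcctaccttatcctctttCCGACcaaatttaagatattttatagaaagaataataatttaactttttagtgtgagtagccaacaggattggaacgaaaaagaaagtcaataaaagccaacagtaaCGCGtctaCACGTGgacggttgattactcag
LTI30 held the dehydration-responsive core in 3 places, and ERD15 in 1.

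Levels were then compared between cells with reads of marker genes and all other cells. A cell belonged to a class with reads of at least 2 of its markers, or of WOX5 or BBM for the stem cell niche. Classes overlap: 150 cells fell in 2 or more and 67 in none. Endodermis markers (12 cells) and green tissue markers (8 cells) gave too few cells to compare. Since cells are not replicates, ratios past 2-fold are counted without a test.

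In most classes few or none of the 100 genes passed 2-fold, and 83 stayed within 2-fold in all 6 classes. In 41 pericycle cells none was past 2-fold higher, where 12.1% of 18370 genes with at least 100 reads were, and none was past 2-fold lower, against 28.8%. In 172 vascular precursor cells none was past 2-fold either way, against 17.5% higher and 14.7% lower, and in 140 lateral root primordium cells none, against 16.2% and 16.3%. In 32 phloem cells none was past 2-fold higher, against 12.5%, and 2 were lower, against 35.4%. In 35 cells with G2 and M phase markers none was past 2-fold higher, against 15.1%, and 1 was lower, against 27% of genes. Over genes with at least 10000 reads, these background shares lay between 1.23% and 7.46%. Genes chosen for a read in most cells cannot be confined to a class, so nothing is read from the difference between members and backgrounds. Without flow cell 1, 4 members passed 2-fold in pericycle cells and 7 in G2 and M phase cells, and without flow cell 2, 1 passed in pericycle cells and 1 in phloem cells.

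The exceptions in these 5 classes were few. PCK1 had 1714 CPM in phloem cells and 3866 in the others (log2 ratio -1.17, and -0.66, -1.61 and -2.76 on the 3 flow cells). AT2G01610 was at -1.11 in phloem cells and at -1.30 in G2 and M phase cells. IAA9, an Aux/IAA repressor gene, was at 0.78 in phloem cells, the highest ratio there, and the small GTPase gene RAN-1 at 0.43 in vascular precursor cells. In pericycle cells AT3G52800, a zinc finger gene, was at 0.86 and DREB2A at 0.66, while SAC52 and AT5G60390 were at -0.86. In primordium cells AT5G20290 was at 0.92 and AT5G60390 at 0.68, each above 0 on all 3 flow cells. The most even genes over the 6 classes were TPI, whose largest log2 ratio in either direction was 0.16, GAPC1 (0.22), APX1 (0.25), TCTP (0.25) and SAMDC (0.26).

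The last class was that of the 56 cells with reads of WOX5 or BBM. Here 6 genes were past 2-fold higher and 9 past 2-fold lower, against 20.8% and 25.5% of 18371 genes with at least 100 reads and 10.9% and 19.2% of 2039 genes with at least 10000 reads. With CPM the shares of members were below both backgrounds. Nothing is read from that, since the members were chosen for a read in most cells. AT5G20290 had 2305 CPM in these cells and 757 in the other 266 (log2 ratio 1.61, and 1.57, 1.81 and 1.36 on the 3 flow cells). AT4G27090 had 1153 and 395 CPM (1.54), SAC52 1439.5 and 522 CPM (1.46), AT5G60390 8150.0 and 3024 CPM (1.43), EIF4A1 1135 and 549.8 CPM (1.05) and AAC1 2369 and 1168 CPM (1.02). All 6 were higher on each of the 3 flow cells. FBR12 (0.87) and AT1G07940 (0.96) stayed under 2-fold, and SAG24 was at -0.08.

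The 9 lower genes came from several groups. OPR1 had 2242 CPM in WOX5 or BBM cells and 6389.7 in the others (-1.51, and -1.97, -1.26 and -1.17 on the 3 flow cells). HSF4 was at -1.41, AT5G21940 at -1.39, AT4G20830 at -1.35, CYT1, which makes GDP-mannose for ascorbate and cell walls, at -1.30, and C4H and LEA14 at -1.18 each. AT5G54940 was at -1.17 and the cysteine protease gene RD19 at -1.12. Of the 100 genes, 77 were below 0 in WOX5 or BBM cells. They included all 9 dehydration and cold genes, all 10 redox genes and all 11 transcription regulators, with group medians of -0.56, -0.60 and -0.68. The 8 ubiquitin and SUMO, 6 cell wall and arabinogalactan and 2 chaperone genes were all below 0 too (medians -0.36, -0.56 and -0.80). The translation group had a median of 1.05 with 7 of 9 above 0. It was also raised in primordium cells (median 0.57) and in G2 and M phase cells (0.37), each with 7 of 9 above 0. In pericycle cells it was at -0.78 with 1 of 9 above 0, and in phloem cells at -0.06 with 4 of 9. Of the 56 WOX5 or BBM cells, 36 were also in the primordium class. Over all 100 genes the median in WOX5 or BBM cells was -0.51, against 0.03 over all genes with at least 100 reads. These cells had a median of 6056.5 genes, against 3787.5 in the other cells, at 229034 and 251696 reads, and the part of gene number in the result was not tested.

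Scaling by the trimmed mean of M values moved all log2 ratios in this class by -0.19. It left 4 of the 100 genes past 2-fold higher and 19 lower, and the translation median was 0.86 in place of 1.05. Background shares are given only for CPM, so these counts have none beside them.

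**Figure D5:**
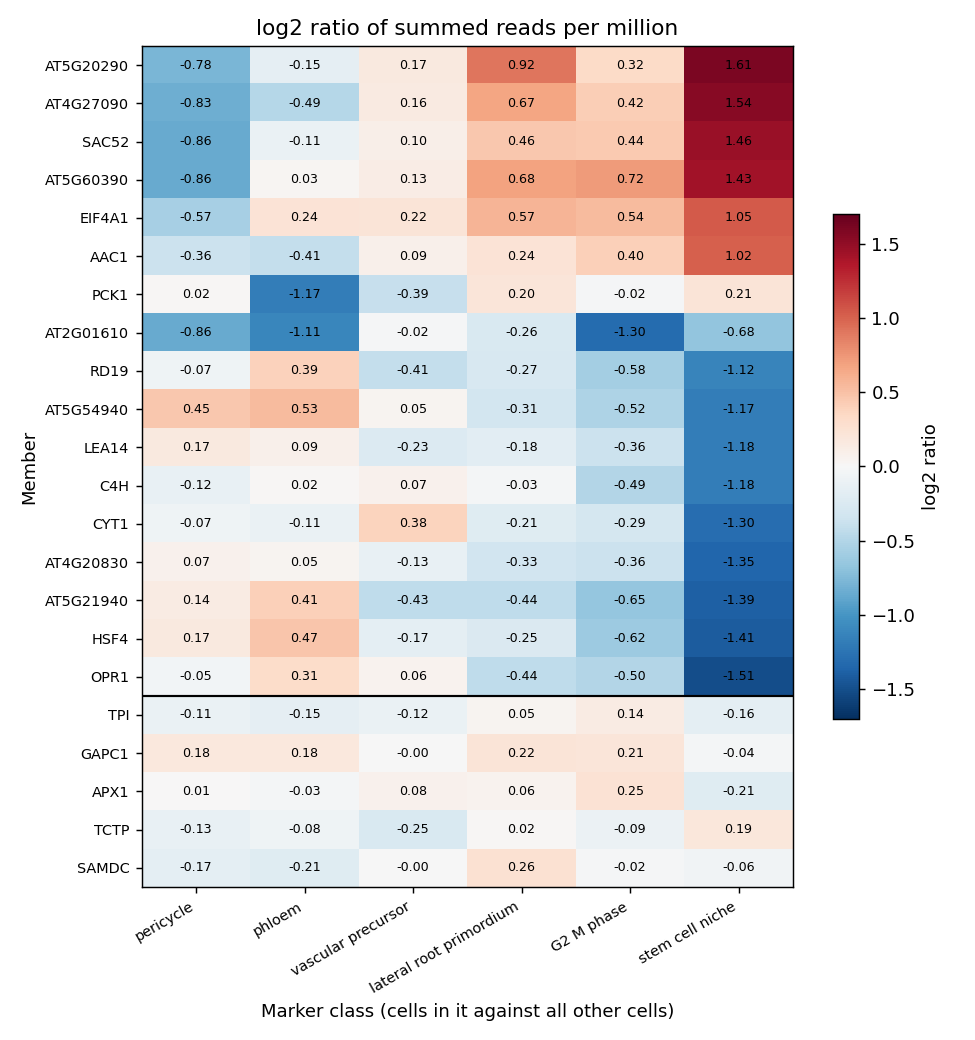
log2 ratio of CPM from summed reads, cells of a marker class against all other cells (columns), for the 17 members past 2-fold in a class and, under the line, the 5 most even ones (rows). In the stem cell niche column 5 translation genes are past 2-fold higher (up to 1.61), while AT5G54940 of the same group is at -1.17 and OPR1 is lowest at -1.51. AT5G20290 is at -0.78 in the pericycle column.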

How the data were processed

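The deposited table holds raw read counts per gene and well, and a second deposited file pairs wells with raw file names that give flow cell and plate. Per the submitters' processing notes, TAIR10 was the build; the aligner, counting rule and strand setting are not stated. All wells were treated as 1 sample, since none could be tied to a replicate, so no count model was run and no p-value computed. No molecular identifiers are named, and intervals (exact binomial, 95%) cover counting error only. No doublet caller was run.

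The 100 members, the functional lists, the groups and the 500 kb and 31-base checks were chosen with earlier results of these data known. The pattern of the transcription factor list was corrected after first values had been seen. Reads were summed over cells and scaled to the total (CPM); log2 ratios added 0.5 reads to each sum. Cells were thinned to 115851 reads (seed 1), leaving out 65. The fold step was tested on simulated data. Sequences and coordinates are from RefSeq's TAIR10.1, matched by locus (100 of 100 members). Genes were named by rank, level, spread, flow cell ratio, share in wells below the limit, class ratio, list and pair correlation, and further members were named after their values were seen. Python 3.11.15, numpy 2.4.6, pandas 2.3.3, scipy 1.17.1 and matplotlib 3.10.9 were used. One promoter sequence is not reported here.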

Additional observations from a re-analysis of the deposited data

How the results depend on the processing

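No paired analysis was possible because the columns of the table carry no replicate number. Of the 100 members, 85 to 97 were chosen again under other limits on genes or reads, at equal depth, with all wells, or with flow cells left out or alone, and 66 when ranked by median CPM. Their share of nuclear reads was 12.3% as a mean over cells, 13.2% with 1000 or more genes, and 13.0% to 13.3% without a flow cell. Between flow cells, 4 passed 2-fold with the mean of CPM over cells. In WOX5 or BBM cells, 23 passed with the trimmed mean of M values, and 14 to 17 under the other settings. In G2 and M phase cells 7 passed without flow cell 1. In pericycle cells 4 passed without flow cell 1, 1 without flow cell 2 and 1 with the mean over cells, which also gave 1 in vascular precursor cells. In phloem cells 1 passed without flow cell 2. The cause was not tested. The median share in wells below the limit was 1.59% with 2 or more reads and 9.80% in the 51 of these wells with at least 100 genes. Equal depth gave 3.17%, a setting chosen after seeing the data. Low depth limits shares in small wells, and no value has a replicate check.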
